A study of Mus musculus with 15 samples.

Results

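Complexes III, IV and V carry out the last steps of oxidative phosphorylation in the inner mitochondrial membrane, and the nuclear genes for their subunits were followed here in pressure-loaded mouse hearts. The genes were chosen by symbol: those starting with Uqcr, Cox4i, Cox5, Cox6, Cox7, Cox8 or Atp5, together with Cyc1 and Cycs, with a probe well above background on at least 3 of the 15 arrays. This rule gave 44 genes of the 25779 features tested. They were 9 subunits of complex III, the electron carrier Cycs, 16 subunits of complex IV, the supercomplex factor Cox7a2l and 17 subunits of complex V. All 45 protein-coding genes with such a symbol had a probe, and only Cox8c failed the filter, being well above background on 1 array. None of the named probes measured a mitochondrially encoded subunit.

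RNA came from the heart apex of male C57BL6 mice aged 10 weeks, collected 3 days after an operation, which was either transverse aortic constriction (TAC), in which a ligature tightens the aorta, or a sham. The genotypes were MHC-cre (Cre), in which a myosin heavy chain promoter drives the cre recombinase, and MHC-cre-klf4 (KO), in which the labels add a knockout of the zinc-finger factor Klf4 to the same cre. All mice thus carried cre, and none of the groups was free of it. Sham hearts filled 4 Cre and 4 KO arrays, and TAC hearts 3 Cre and 4 KO arrays, and the labels give no animal more than 1 array.

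Levels are given as log2 of the processed signal minus the array's 75th percentile, called the log2 level. KO TAC replicate 4 had a median processed signal of 445.4, where the other 14 arrays ranged from 83.7 to 141.6. That array had 95.7% of its probes well above background, against 65.6% to 75.4% elsewhere, and a median rank correlation of 0.788 with the other arrays, against 0.955 to 0.978. The main counts and medians that rest on it are therefore given with and without it. Values of single genes include it unless stated. The arrays lay on 4 slides, and those of slide 1 stood apart for several of these genes, as described further on. Of 15 columns in the authors' deposited value table, 14 matched a scanner file whose operation was the same and whose filed genotype was the opposite one, so no genotype difference here has a settled sign. The TAC comparison averaged over both genotypes does not depend on that label. Klf4 itself lay between 3.26 and 4.50 on the log2 level scale over all 15 arrays, its ranges overlapped between all groups, and no source used here places its probe relative to the deleted part.

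Complex III takes electrons from ubiquinol and hands them to cytochrome c, complex IV passes them on to oxygen, and complex V uses the resulting proton gradient to make ATP. Heart muscle is among the tissues richest in these proteins. Several complex IV subunits exist as a form typical of heart and skeletal muscle and a form found in most tissues: Cox6a2 and Cox6a1, Cox7a1 and Cox7a2, and Cox8b and Cox8a. Nuclear respiratory factor 1 (NRF1), ETS factors such as GABP (NRF2), estrogen-related receptors (ERR) and YY1 are known regulators of such genes.

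Cox6a1 and Cox7a2l were the members called over both genotypes together whose probes were well above background on every array, so the 250 bases before their RefSeq start are shown. Cox7a1 and Cox7a2 are set beside them as a muscle and common pair whose ratio did not pass the test. Coordinates are of GRCm38.p6. Capitals mark matches, on either strand, to the NRF1 core CATGCGC and to the ETS core CCGGAAG. The windows are chr5:115348959-115349208 (minus strand) for Cox6a1, chr17:83514334-83514583 (minus strand) for Cox7a2l, chr7:30183921-30184170 (plus strand) for Cox7a1 and chr9:79759854-79760103 (minus strand) for Cox7a2.
Cox6a1: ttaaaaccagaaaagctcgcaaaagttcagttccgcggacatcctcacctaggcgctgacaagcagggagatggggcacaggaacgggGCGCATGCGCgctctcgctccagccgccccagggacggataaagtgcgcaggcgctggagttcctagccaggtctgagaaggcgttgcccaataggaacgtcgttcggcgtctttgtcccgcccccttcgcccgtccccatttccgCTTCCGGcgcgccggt
Cox7a2l: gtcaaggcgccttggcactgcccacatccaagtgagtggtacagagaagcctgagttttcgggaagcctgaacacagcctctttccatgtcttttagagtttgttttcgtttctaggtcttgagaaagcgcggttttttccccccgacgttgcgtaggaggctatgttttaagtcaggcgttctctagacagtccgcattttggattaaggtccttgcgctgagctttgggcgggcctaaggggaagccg
Cox7a1: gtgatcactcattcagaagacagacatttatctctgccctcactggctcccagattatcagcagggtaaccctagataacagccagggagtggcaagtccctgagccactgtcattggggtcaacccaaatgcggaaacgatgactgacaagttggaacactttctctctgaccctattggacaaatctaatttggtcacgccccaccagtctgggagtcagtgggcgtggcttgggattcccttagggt
Cox7a2: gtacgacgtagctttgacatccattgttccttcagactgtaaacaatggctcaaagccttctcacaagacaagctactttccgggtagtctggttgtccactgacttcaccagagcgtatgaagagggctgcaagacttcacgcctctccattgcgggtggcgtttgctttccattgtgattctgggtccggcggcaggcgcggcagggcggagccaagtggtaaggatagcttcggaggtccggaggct
The Cox6a1 window held 2 overlapping NRF1 cores, which together form a palindrome, and 1 ETS core close to the start, while the other 3 windows held no match. An upstream window was found for 34 of the 44 genes. The NRF1 core was in 6 of the 34 (17.6%), against 3.28% of the 27025 RefSeq upstream windows of the same length, and the ETS core in 8 (23.5%), against 7.14%. The ERR site AAGGTCA was in 2 (5.88%, against 4.05%) and the YY1 core AAGATGG in 1 (2.94%, against 4.50%). Cox6a1 and Atp5l were the genes with both an NRF1 and an ETS core. These are matches of letters and not measured sites.

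Over both genotypes, TAC left most of these genes within the spread between arrays. In limma's moderated test with Benjamini-Hochberg adjustment over all features, 1 member rose and 2 fell in the averaged comparison, where 27.0% of all features were called (13.3% higher and 13.7% lower). Cox6a1 rose, and Cox7a2l and Cox7b2 fell. The share of members called was thus below the share of all features with this scaling. With quantile normalization and in the authors' deposited values it was not below, as given further on. The median log2 difference of the 44 genes was -0.20, against 0.04 for all features, and 40 of the 44 lay below 0. Their middle values ran from -0.31 (25th percentile) to -0.13 (75th), against -0.32 and 0.42 over all features. Small negative differences were thus common, and few passed the test. Without KO TAC replicate 4 the averaged median was -0.12 for the members and -0.07 for all features. The members are bright: 39 of the 44 lay above the 95th percentile of features by mean signal. As a description, the 1162 features at or above the members' 10th percentile of brightness, 39 of the members among them, had an averaged median of -0.06, and of 0.03 without that array. Their medians were 0.06 in Cre and -0.17 in KO, the KO median being -0.00 without that array.

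In hearts filed as Cre, none of the 44 was called, while 5.94% of features were, and 1 member, Cox6a1, had an unadjusted p under 0.05 in the limma test, against 18.5% of features. The median was -0.04. In hearts filed as KO, 3 members fell and 0 rose, where 23.2% of features were called (12.6% lower), and the median was -0.38 with 41 of 44 below 0. Without KO TAC replicate 4 the KO median was -0.21, with 3 members lower and Cox6a1 higher (31.5% of features called). The 3 lower were then Cox7a2l, Atp5j2 and Cox7b2, whereas with all arrays they were Cox7a2l, Atp5j2 and Atp5k. Without that array the averaged comparison called 1 member higher and 4 lower (38.1%). The size of the KO median therefore depended on that array. Other arrays moved the small counts too: the KO count of 3 fell to 1 without any 1 of Cre sham 1, 2 or 3, Cre TAC 1, KO sham 1, 3 or 4, or KO TAC 2 or 3, and rose to 9 without KO TAC 1. The averaged count of 3 fell to 1, Cox6a1 remaining, without Cre sham 4, Cre TAC 1 or 2, or KO sham 1 or 4, and rose to 5 without KO TAC 1 or KO TAC 4. The difference between the KO and the Cre response had a median of -0.36 and was called for 0 of the 44 genes, against 3 of 25779 features (0.0116%). Without KO TAC replicate 4 that median was -0.18, and again 0 members were called. At an unadjusted p under 0.05 in the limma test it was 1 member, against 7.17% of features, so a larger fall in the hearts filed as KO was not established for any of them.

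Scaling mattered as much. With quantile normalization the averaged comparison called 1 member higher and 11 lower, and the authors' deposited values gave 1 higher and 26 lower, where 26.2% and 42.4% of all features were called. The members' medians were -0.23 and -0.28. The deposited values differed from the scanner files in more than scaling. Their column filed as KO TAC replicate 4 matched no scanner file (closest rank r 0.990), and no column matched the scanner file of that array. Counts without the unmatched column are given at the end. Median scaling called 0 higher and 1 lower (12.4% of all features) and moved the median of all features from 0.04 to -0.16. Taken relative to the median of all features, the members' median was -0.25 with the 75th percentile, -0.25 with median scaling, -0.13 with quantile normalization and -0.22 in the authors' deposited values.

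**Figure D1:**
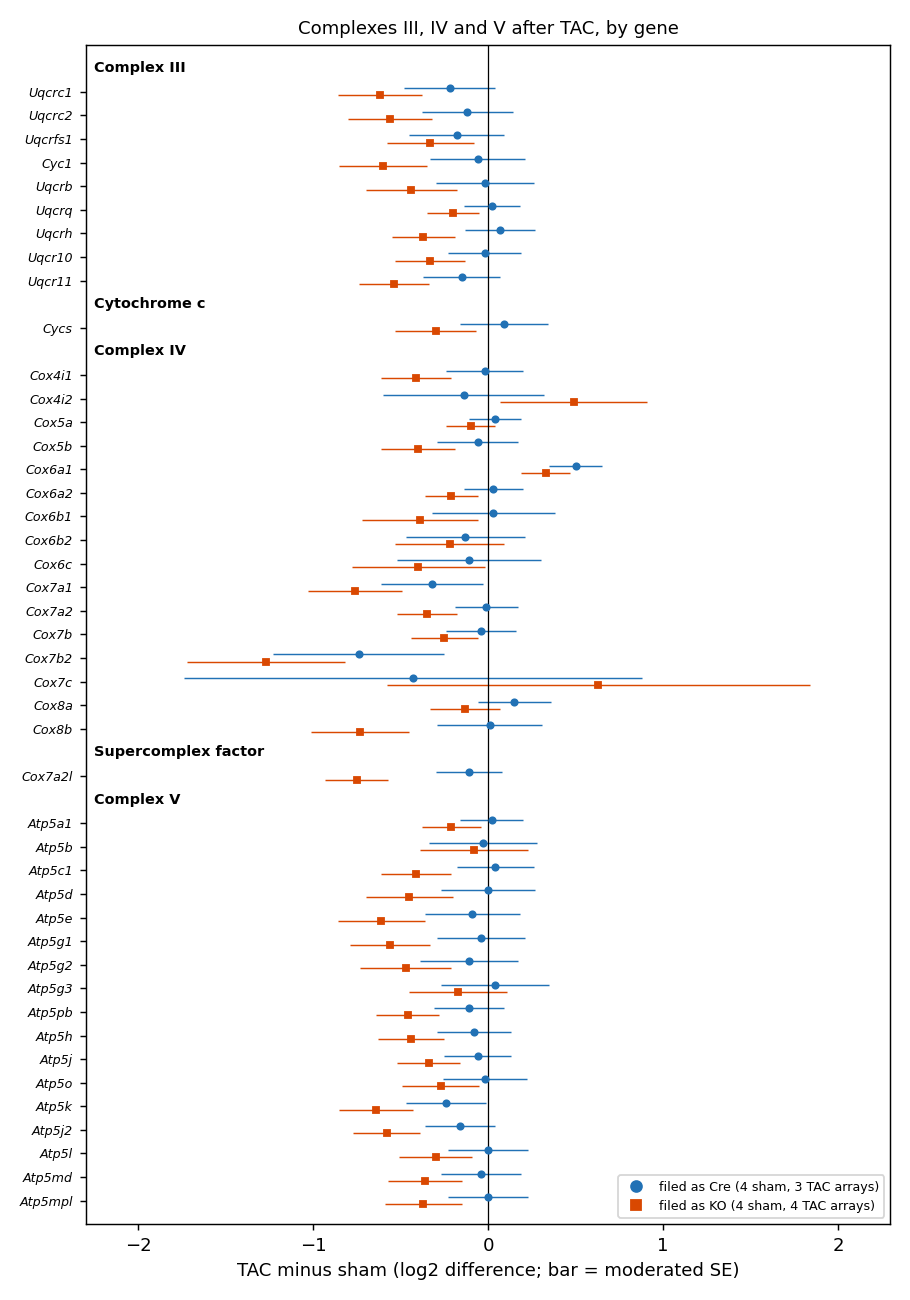
Log2 difference between TAC and sham hearts for each of the 44 genes, by complex, with moderated standard errors as bars. Circles are hearts filed as Cre (4 sham and 3 TAC arrays) and squares hearts filed as KO (4 and 4). Most circles lie near 0 and most squares below it; Cox6a1 is above 0 in both, and Cox7c and Cox7b2 carry wide errors.

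Array by array, the members of the TAC groups did not sit together. The median deviation of the genes from the mean of the 8 sham arrays was -0.03, -0.23 and 0.13 on the Cre TAC arrays. It was -0.04, -0.41, -0.23 and -0.85 on KO TAC replicates 1 to 4. Sham arrays spread from -0.20 (KO sham 2) to 0.24 (KO sham 1), so KO TAC 2, 3 and 4 and Cre TAC 2 lay below every sham array, and Cre TAC 1 and 3 and KO TAC 1 did not. With quantile normalization the sham arrays spread from -0.10 (KO sham 2) to 0.06 (Cre sham 3). The Cre TAC arrays then stood at -0.11, -0.21 and -0.01, and KO TAC replicates 1 to 4 at -0.24, -0.41, -0.34 and -0.35. Every TAC array except Cre TAC 3 thus lay below every sham array with that normalization.

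**Figure D2:**
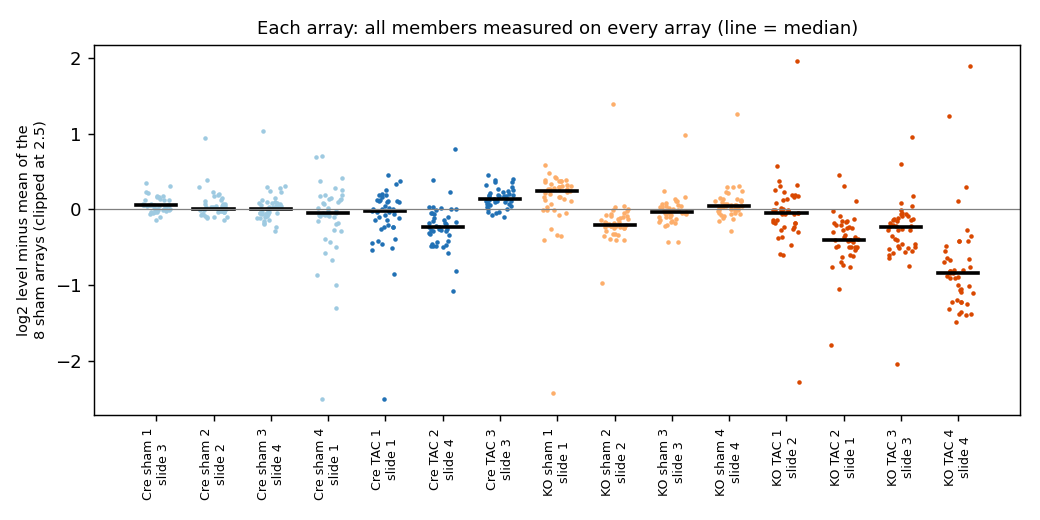
Deviation of each gene from the mean of the 8 sham arrays (log2), on each array with its slide, for the 43 genes measured on all 15 arrays. Points are genes, clipped at 2.5 in either direction, and black lines are medians. KO TAC replicate 4 has the lowest median, at -0.85, and Cre TAC replicate 3 lies above 0, at 0.13.

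Comparing TAC with sham within a slide gave 7 pairs of arrays. The median difference of the members was 0.02, 0.09 and -0.24 in the Cre pairs of slides 1, 3 and 4. In the KO pairs it was -0.61, 0.17, -0.22 and -0.96 on slides 1 to 4. The members as a whole thus went both ways between slides. Cox6a1 was higher in 7 of 7 such pairs (0.11 to 0.68), and Atp5k and Atp5j2 were lower in 7 of 7 (-1.20 to -0.04 and -1.16 to -0.02). The KO pair of slide 4 holds KO TAC replicate 4. It gave the values 0.11, -1.20 and -1.16 and the median of -0.96. How many of all features went the same way in every pair was not counted.

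Cox6a1 encodes the form of this small complex IV subunit that most tissues use. It read 7.26, 7.16, 7.01 and 7.32 on the Cre sham arrays and 7.68, 7.69 and 7.69 on the Cre TAC arrays. KO sham arrays gave 7.54, 7.33, 7.46 and 7.30, and KO TAC arrays 7.87, 7.75, 7.90 and 7.42. All Cre TAC arrays lay above all Cre sham arrays, and in the KO groups only KO TAC replicate 4 fell within the sham range. The averaged log2 difference was 0.41 ± 0.10 (moderated SE; limma adjusted p = 0.0099), a fold of 1.33. It was 0.50 ± 0.15 in Cre (adjusted p = 0.077) and 0.33 ± 0.14 in KO (adjusted p = 0.12), and without KO TAC replicate 4 both passed, at 0.50 (adjusted p = 0.014) and 0.43 (adjusted p = 0.012). Median scaling left it at 0.21 (adjusted p = 0.73). Among the 44 genes, Cox6a1 was the only one whose Cre TAC arrays lay wholly above the sham arrays (13.4% of all features did so), and 0 lay wholly below (13.5%).

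Cox6a2, the heart and muscle form, read 8.23, 8.24, 8.27 and 8.29 on Cre sham arrays and 8.38, 8.16 and 8.32 on Cre TAC arrays. On KO sham arrays it read 8.58, 8.13, 8.14 and 8.27, and on KO TAC arrays 8.29, 8.12, 8.14 and 7.73. The groups overlapped throughout, and the averaged difference was -0.09 ± 0.11 (limma adjusted p = 0.62).

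Because both probes are read on the same array, the within-array difference Cox6a2 minus Cox6a1 does not depend on a scaling factor per array. The size of that difference sets one probe against another and carries no meaning; only its change does. It was 0.97, 1.08, 1.26 and 0.97 on Cre sham arrays and 0.70, 0.47 and 0.63 on Cre TAC arrays. It was 1.04, 0.80, 0.68 and 0.97 on KO sham arrays and 0.42, 0.37, 0.24 and 0.31 on KO TAC arrays. TAC and sham arrays did not overlap in either genotype, and KO TAC replicate 4 lay among the other KO TAC arrays. The mean change was -0.51 (-0.47 in Cre, -0.54 in KO), a ratio 1.42-fold lower. A two-sided exact permutation test of the operation labels within filed genotype gave p = 4.1e-04, the smallest its 2450 arrangements allow, and 0.0024 after adjustment over the 6 pairs tested. Within slides the change was negative in 7 of 7 pairs of arrays (-0.79 to -0.27), and under other normalizations and with each array left out it lay between -0.59 and -0.43.

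The other muscle and common pairs had mean changes of the same sign, and neither passed the test. Cox7a1 minus Cox7a2 was 1.71, 1.60, 1.5 and 1.94 on Cre sham arrays and 1.92, 0.83 and 1.36 on Cre TAC arrays. The KO sham arrays gave 2.14, 1.33, 1.43 and 1.53, and the KO TAC arrays 1.27, 1.63, 1.05 and 0.85. Ranges overlapped in both genotypes, and arrays of slide 1 were the highest of every group. The mean change was -0.36 (exact permutation p = 0.068, adjusted p = 0.17), and it was -0.50 without Cre TAC 1 (adjusted p = 0.026) and -0.44 without the arrays of slide 1 (adjusted p = 0.010).

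Cox8b minus Cox8a was 1.56, 1.52, 1.64 and 0.41 on Cre sham arrays and 1.14, 0.89 and 1.42 on Cre TAC arrays. On KO sham arrays it was 1.64, 1.25, 1.44 and 1.53 and on KO TAC arrays 1.11, 0.76, 0.63 and 0.97. The KO groups did not overlap, while Cre sham 4, on slide 1, lay below all Cre TAC arrays. The mean change was -0.36 (exact permutation p = 0.086, adjusted p = 0.17), -0.51 without Cre sham 4 (adjusted p = 0.0043) and -0.46 without slide 1 (adjusted p = 0.010).

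**Figure D3:**
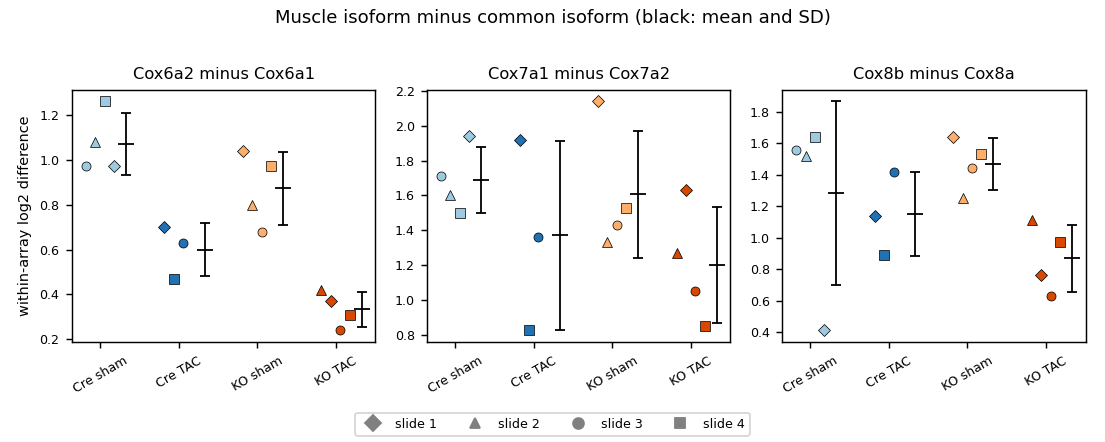
Within-array log2 difference between the muscle form and the common form of 3 complex IV subunits, by group, with the slide as the marker and the mean and SD in black. For Cox6a2 minus Cox6a1 every TAC array lies below every sham array of its genotype. Cox7a1 minus Cox7a2 overlaps in both genotypes, and Cox8b minus Cox8a overlaps in Cre hearts only.

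The levels behind these pairs differed in size. Cox7a1, the muscle form, read 8.27, 8.17, 8.15 and 8.35 on Cre sham, 8.23, 7.40 and 8.11 on Cre TAC, 8.70, 7.81, 8.01 and 8.25 on KO sham and 7.83, 7.70, 7.47 and 6.72 on KO TAC arrays. Its averaged difference was -0.54 ± 0.20 (limma adjusted p = 0.059), and with slide as a block it was -0.54 (adjusted p = 0.034). Cox7a2, the common form, read 6.56, 6.57, 6.66 and 6.41 on Cre sham, 6.30, 6.57 and 6.75 on Cre TAC, 6.56, 6.48, 6.57 and 6.72 on KO sham and 6.56, 6.07, 6.42 and 5.87 on KO TAC arrays. TAC and sham arrays overlapped for both genes, and for Cox7a2 the averaged difference was -0.18 ± 0.12 (adjusted p = 0.34).

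Cox8b read 7.79, 7.77, 7.70 and 6.75 on Cre sham, 7.54, 7.16 and 7.84 on Cre TAC, 8.0, 7.49, 7.75 and 7.68 on KO sham and 7.44, 7.12, 7.05 and 6.39 on KO TAC arrays. All KO TAC arrays lay below all KO sham arrays. The KO difference was -0.73 ± 0.28 (limma adjusted p = 0.075), or -0.53 without KO TAC replicate 4 (adjusted p = 0.14). Cox8a, the common form, read 6.23, 6.25, 6.05 and 6.34 on Cre sham, 6.40, 6.27 and 6.42 on Cre TAC, 6.36, 6.23, 6.31 and 6.15 on KO sham and 6.32, 6.35, 6.42 and 5.42 on KO TAC arrays. Apart from KO TAC replicate 4 the Cox8a levels stayed within a narrow band, and the averaged difference was 0.01 ± 0.15 (adjusted p = 0.98).

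Cox4i1, the common form of the subunit that regulates the enzyme by nucleotides, read 8.43, 8.47, 8.38 and 8.40 on Cre sham, 8.54, 8.09 and 8.56 on Cre TAC, 8.72, 8.19, 8.35 and 8.45 on KO sham and 8.29, 8.18, 8.21 and 7.41 on KO TAC arrays. Cox4i2, the form known from lung and hypoxia, was dim on all arrays, at -5.11, -5.03, -5.00 and -4.41 on Cre sham, -4.99, -5.11 and -5.00 on Cre TAC, -5.45, -5.31, -5.12 and -5.39 on KO sham and -5.69, -4.80, -5.62 and -3.21 on KO TAC arrays. Its highest value was that of KO TAC replicate 4. The averaged differences were -0.21 ± 0.15 for Cox4i1 (limma adjusted p = 0.34) and 0.17 ± 0.31 for Cox4i2 (adjusted p = 0.75), and Cox4i2 minus Cox4i1 changed by 0.39 (exact permutation p = 0.48, adjusted p = 0.51). Without KO TAC replicate 4 the Cox4i2 difference was -0.10 and the pair change 0.02, so the positive values rested on that array.

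Cox7a2l, described as a factor that joins complexes III and IV into supercomplexes, fell in the hearts filed as KO. Its protein and the supercomplexes of these C57BL6 mice were not measured. It read 4.50, 4.24, 4.24 and 4.40 on KO sham arrays and 3.86, 3.57, 3.84 and 3.12 on KO TAC arrays. On Cre sham arrays it read 4.30, 4.24, 4.15 and 4.62, and on Cre TAC arrays 4.20, 4.10 and 4.36. All KO TAC arrays lay below every other array, while Cre TAC and Cre sham arrays overlapped. The KO difference was -0.75 ± 0.18 (limma adjusted p = 0.0091), and without KO TAC replicate 4 it was -0.59 (adjusted p = 0.0078). In Cre hearts it was -0.11 ± 0.19 (adjusted p = 0.92), and averaged -0.43 ± 0.13 (adjusted p = 0.029); the averaged call was lost without Cre sham 4, Cre TAC 1, Cre TAC 2, KO sham 1 or KO sham 4. The gap between the TAC groups, KO minus Cre, was -0.63 ± 0.19 (adjusted p = 0.10). In the authors' deposited values, by the genotypes of that table, the Cre difference of Cox7a2l was -0.71 (limma adjusted p = 4.0e-04), the KO difference -0.18 (adjusted p = 0.28) and the averaged one -0.44 (adjusted p = 4.7e-04). The genotype in which Cox7a2l passed the test thus depended on which label was taken. Without the arrays of slide 1 the KO difference was -0.69 (adjusted p = 0.076). Among the 44 genes, 6 had all KO TAC arrays below all KO sham arrays (13.3% of all features did) and 0 had them above (10.4%): Uqcr11, Cox8b, Cox7a2l, Atp5e, Atp5k and Atp5j2.

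**Figure D4:**
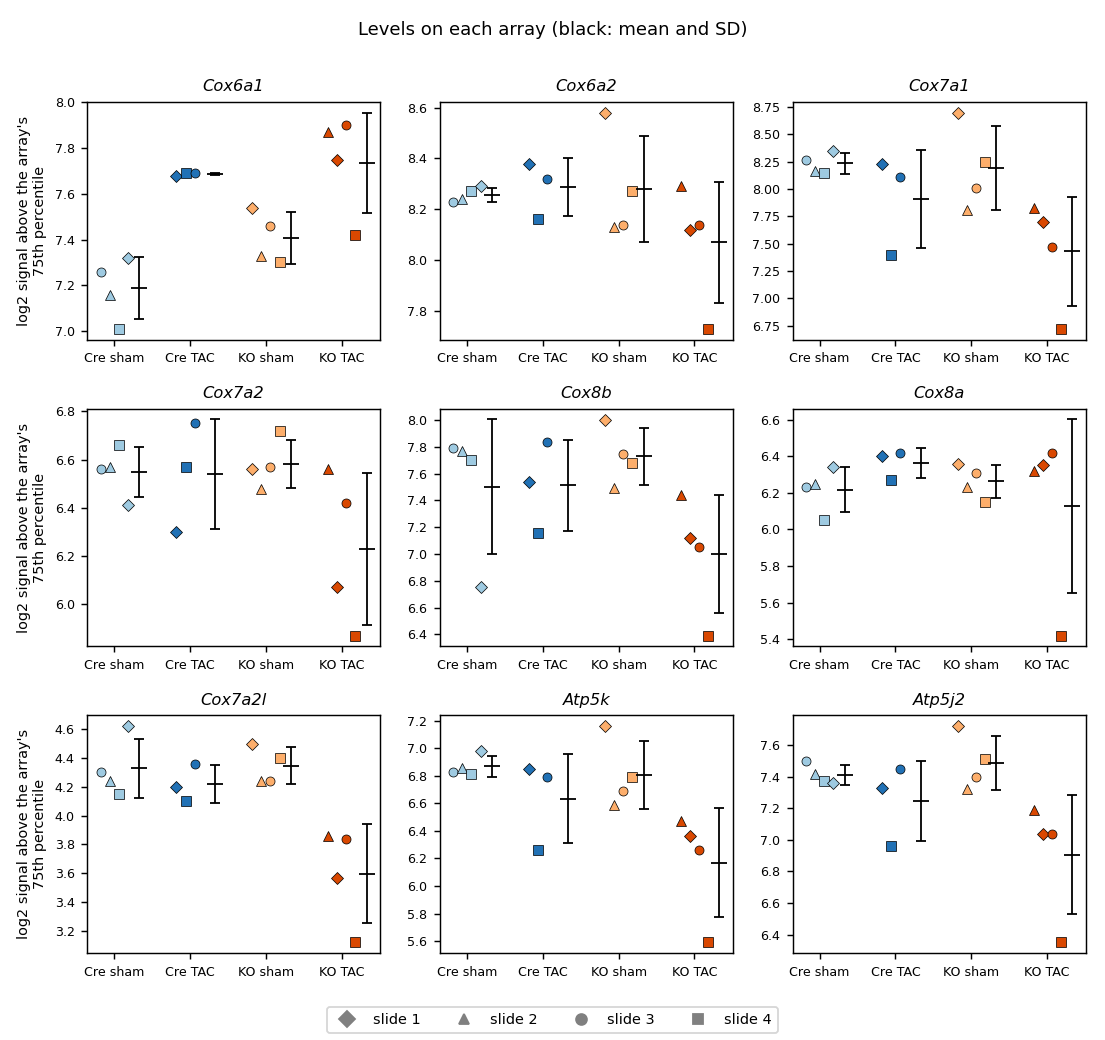
Log2 level of 9 genes on each array, with the slide as the marker, for sham and TAC hearts of either filed genotype, and the mean and SD of each group in black. Cox6a1 is higher after TAC in both genotypes; Cox7a2l is lower in the KO TAC arrays than in all others; KO TAC replicate 4 is the lowest KO TAC array in all 9 panels.

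The remaining complex IV subunits showed no called change that rested on well-measured probes. Of 16 subunits, 12 lay below 0 in the averaged comparison, with a median of -0.17, which was -0.11 without KO TAC replicate 4. The differences of Cox5a and Cox5b, nuclear subunits that surround the catalytic core, were -0.03 ± 0.10 and -0.23 ± 0.16. Cox7b2, a form known from testis, read -4.50, -3.97, -4.05 and -4.16 on Cre sham, -4.90, -5.44 and -4.39 on Cre TAC, -4.36, -4.53, -4.78 and -4.51 on KO sham and -6.64, -6.15, -6.40 and -4.06 on KO TAC arrays. It was well above background on 1 of the 4 KO TAC arrays, KO TAC 4 being the highest of them, and on all arrays of the other groups. Its averaged difference of -1.0 ± 0.33 (limma adjusted p = 0.039) is therefore that of a gene near the detection limit, and the call was lost in 12 of 15 fits that left out 1 array. The KO difference was -1.27 and not called. Without KO TAC replicate 4 it was -1.85 (limma adjusted p = 1.8e-04). With all arrays it was -2.17 with quantile normalization (adjusted p = 9.6e-04) and -0.52 with normexp and quantile (adjusted p = 0.0022), so its size depended on the processing.

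Cox7c differed between slides more than between groups. It read 3.61, 4.25, 4.35 and -0.17 on Cre sham, -0.12, 4.11 and 3.76 on Cre TAC, 0.88, 4.70, 4.29 and 4.57 on KO sham and 5.27, 2.88, 4.27 and 4.55 on KO TAC arrays. Its lowest value in every group was that of the slide 1 array, and its averaged difference was 0.10 ± 0.89 (limma adjusted p = 0.95). The mean of the 4 slide 1 arrays was 0.87 ± 1.43 (SD), against 4.34 ± 0.45 (SD, n = 11) elsewhere. Atp5b was also lower on every slide 1 array that measured it (7.06 ± 0.08, n = 3, against 7.86 ± 0.15, n = 11), and 5 of the 44 genes lay more than 0.5 below the other slides, among them Cox6c (by -0.96), Atp5g3 (by -0.70) and Cox6b1 (by -0.54). Cox6b2 went the other way (0.72 above the other slides). Slide 1 held 1 array of each group. Leaving out its 4 arrays left 0 calls among the members in the KO comparison and 1, Cox6a1, in the averaged one, where 12.3% and 16.2% of features were called.

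**Figure D5:**
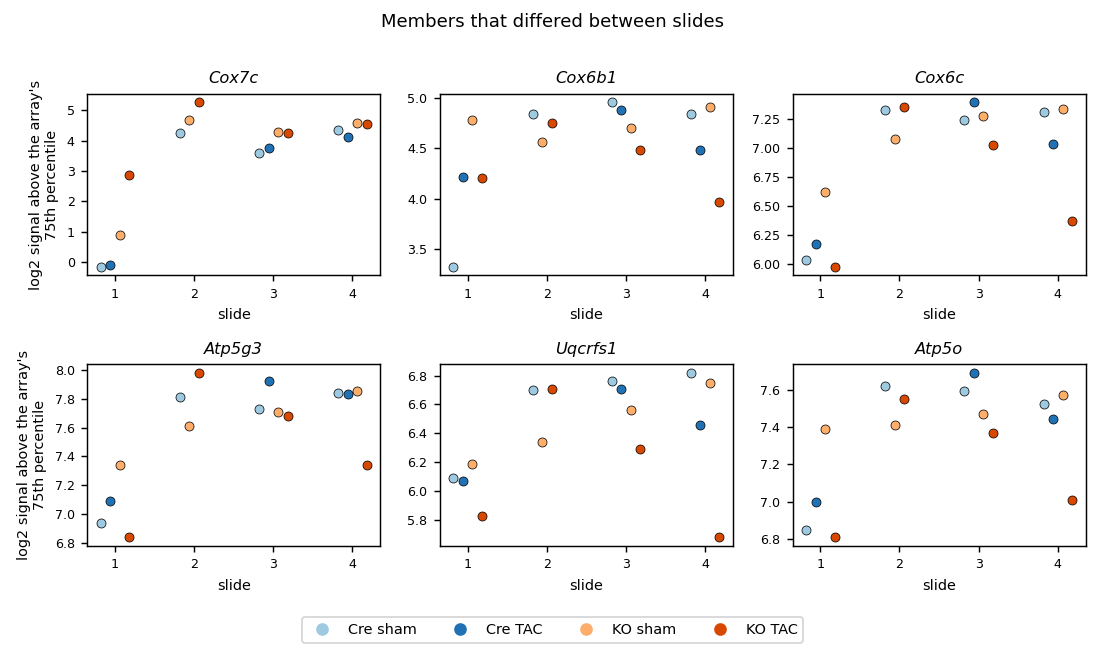
Log2 level of 6 genes by slide, coloured by group, for the 15 arrays. The slide 1 array is the lowest of its group in all 4 groups for Cox7c, Cox6c, Atp5g3 and Atp5o. The slide 1 mean is below that of the other slides in all 6 panels.

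All 9 complex III subunits lay below 0 in the averaged TAC comparison, with a median of -0.26 (-0.06 in Cre and -0.44 in KO), and none passed the limma test. The medians without KO TAC replicate 4 were -0.18 averaged and -0.30 in KO. With slide as a block Uqcr11 was called lower in KO hearts (limma adjusted p = 0.035), and with quantile normalization Uqcrc1, Uqcrc2 and Uqcr11 were called lower in the KO and the averaged comparison. The authors' deposited values had 5 of the 9 lower in the averaged comparison (42.4% of features called), with a median of -0.35. These were Uqcrc1, Uqcrc2, Uqcr11, Cyc1 and Uqcrfs1. By the genotypes of that table the complex III median was -0.47 in Cre and -0.26 in KO. The core proteins Uqcrc1 and Uqcrc2, large matrix-facing subunits, showed averaged differences of -0.42 ± 0.17 (adjusted p = 0.099) and -0.34 ± 0.18 (adjusted p = 0.19). Uqcrc1 read 7.40, 7.12, 7.29 and 7.18 on Cre sham, 7.19, 6.76 and 7.15 on Cre TAC, 7.53, 6.98, 7.05 and 7.26 on KO sham and 7.04, 6.86, 6.62 and 5.83 on KO TAC arrays. The Uqcrc1 groups overlapped in both genotypes. Cyc1, the cytochrome that passes electrons to soluble cytochrome c, read 7.74, 7.57, 7.62 and 7.94 on Cre sham, 7.93, 7.26 and 7.79 on Cre TAC, 8.10, 7.28, 7.51 and 7.67 on KO sham and 7.38, 7.41, 7.04 and 6.36 on KO TAC arrays. Its averaged difference was -0.33 ± 0.19 (adjusted p = 0.24), and that of Uqcrfs1, the Rieske iron-sulfur protein, was -0.26 ± 0.19 (adjusted p = 0.37).

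Among the small complex III subunits the averaged differences ran from -0.34 (Uqcr11) to -0.09 (Uqcrq). Uqcrh, the hinge protein at the cytochrome c docking site, read 8.26, 8.26, 8.23 and 8.27 on Cre sham, 8.38, 8.12 and 8.48 on Cre TAC, 8.70, 8.08, 8.25 and 8.22 on KO sham and 8.22, 7.99, 8.10 and 7.48 on KO TAC arrays. Its Cre sham arrays were close together and its TAC arrays lay on both sides of them, and the averaged difference was -0.15 ± 0.14 (limma adjusted p = 0.49).

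Cycs, the soluble carrier between complexes III and IV, read 6.95, 6.98, 6.91 and 6.60 on Cre sham, 6.65, 6.91 and 7.28 on Cre TAC, 6.87, 6.69, 6.92 and 7.11 on KO sham and 7.19, 6.25, 6.82 and 6.12 on KO TAC arrays. Arrays of TAC and sham hearts overlapped, and the averaged difference was -0.11 ± 0.17 (limma adjusted p = 0.71). Cycs has 3 probes, and the brightest, used here, gave the smallest change; the dimmer ones gave -0.81 and -0.46. The same held for Atp5b, the catalytic beta subunit of complex V, where the brightest of 3 probes gave -0.06 and the others -0.57 and -0.62. For Atp5a1, the alpha subunit, the values were -0.10 and -0.35. Of the 8 genes with more than 1 probe, the brightest probe was the least lowered in 7, Atp5h being the exception (-0.26 against -0.13), and none had probes of opposite sign.

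The 17 complex V genes all lay below 0 in the averaged TAC comparison, with a median of -0.20 (-0.04 in Cre and -0.41 in KO). All 17 still lay below 0 without KO TAC replicate 4, with an averaged median of -0.12 and a KO median of -0.22. With slide as a block 16 did, and Atp5b was at 0.09. The 5 subunits of the catalytic F1 head (Atp5a1, Atp5b, Atp5c1, Atp5d and Atp5e) ran from -0.35 (Atp5e) to -0.06 (Atp5b), and the 4 of the peripheral stalk (Atp5pb, Atp5h, Atp5j and Atp5o) from -0.29 (Atp5pb) to -0.15 (Atp5o). None of these 9 passed the test in any TAC comparison with the 75th percentile scaling. With quantile normalization Atp5e and Atp5pb were called lower in KO hearts (limma adjusted p = 0.027 and 0.037) and in the averaged comparison (0.044 and 0.026). In the authors' deposited values, by the genotypes of that table, Atp5c1, Atp5e, Atp5h, Atp5j and Atp5pb were called lower in Cre hearts. Atp5pb was also called lower in KO hearts of that table (limma adjusted p = 0.049). The averaged comparison of those values called all of these and Atp5d lower. It called 13 of the 17 complex V genes lower in all, where 42.4% of features were called.

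The 2 complex V genes that fell were membrane subunits, in the hearts filed as KO. Atp5k, the subunit e that holds dimers of the enzyme together, read 7.16, 6.59, 6.69 and 6.79 on KO sham and 6.47, 6.36, 6.26 and 5.59 on KO TAC arrays. On Cre sham arrays it read 6.83, 6.86, 6.81 and 6.98, and on Cre TAC arrays 6.85, 6.26 and 6.79. The KO groups did not overlap, and Cre TAC replicates 2 and 3 lay below the Cre sham range while replicate 1 lay within it. The KO difference was -0.64 ± 0.21 (limma adjusted p = 0.044), -0.45 without KO TAC replicate 4 (adjusted p = 0.065), and the averaged one -0.44 ± 0.16 (adjusted p = 0.052). The averaged difference of Atp5k passed the test with slide as a block (-0.43, adjusted p = 0.028) and without KO TAC replicate 4 (-0.34, adjusted p = 0.040). In the authors' deposited values Atp5k fell in both genotypes of that table, with differences of -0.63 in Cre (limma adjusted p = 0.0020) and -0.50 in KO (adjusted p = 0.0086).

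Atp5j2, subunit f, read 7.72, 7.32, 7.40 and 7.51 on KO sham and 7.19, 7.04, 7.04 and 6.35 on KO TAC arrays. Cre sham arrays gave 7.50, 7.42, 7.37 and 7.36 and Cre TAC arrays 7.33, 6.96 and 7.45. KO TAC and KO sham arrays did not overlap, and Cre groups did. The KO difference was -0.58 ± 0.19 (limma adjusted p = 0.040), -0.40 without KO TAC replicate 4 (adjusted p = 0.048), and the averaged one -0.37 ± 0.14 (adjusted p = 0.065), or -0.28 without KO TAC replicate 4 (adjusted p = 0.042). Both calls stood at the edge of the threshold: with each of the 15 arrays left out in turn, the KO call was lost in 12 fits for Atp5k and in 10 for Atp5j2.

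The c ring of complex V is built from 3 genes that encode the same mature protein with different import signals. Atp5g1 read 7.78, 7.70, 7.51 and 7.59 on Cre sham, 7.77, 7.22 and 7.84 on Cre TAC, 8.04, 7.33, 7.61 and 7.70 on KO sham and 7.48, 7.30, 7.20 and 6.46 on KO TAC arrays. Atp5g2 read 7.59, 7.44, 7.22 and 7.88 on Cre sham, 7.79, 6.97 and 7.51 on Cre TAC, 7.79, 7.11, 7.29 and 7.34 on KO sham and 7.19, 7.26, 6.98 and 6.24 on KO TAC arrays. Atp5g3 read 7.73, 7.81, 7.84 and 6.94 on Cre sham, 7.09, 7.83 and 7.92 on Cre TAC, 7.34, 7.61, 7.71 and 7.85 on KO sham and 7.98, 6.84, 7.68 and 7.34 on KO TAC arrays. Slide 1 arrays were the lowest of their group for Atp5g3, and TAC and sham overlapped for all 3 genes. Averaged differences were -0.30 ± 0.17, -0.29 ± 0.19 and -0.07 ± 0.21 in that order (limma adjusted p = 0.24, 0.32 and 0.86). Atp5g1 minus Atp5g3 changed by -0.23 (exact permutation p = 0.38) and Atp5g2 minus Atp5g3 by -0.22 (exact permutation p = 0.51), each with an adjusted p of 0.51, and without the arrays of slide 1 both changed by -0.33 (adjusted p = 0.042).

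Between genotypes, none of the 44 genes was called after sham, where 0.0155% of features were, and none after TAC, where 3.05% were. At an unadjusted p under 0.05 in the limma test, 0 members differed after sham (4.68% of features) and 4 after TAC (17.5%), namely Cox7a2l, Atp5d, Uqcrc2 and Cyc1, listed after their values were seen. The median KO minus Cre difference of the members was 0.03 after sham and -0.35 after TAC, and the latter was -0.17 without KO TAC replicate 4. In the authors' deposited values, by the genotypes of that table, the median after TAC was 0.19 and 2 members were called, both higher (12.1% of features called). Without KO TAC replicate 4, Cox7b2 was called after TAC (-1.49, adjusted p = 0.0066, with 8.83% of features called), a gene near background in that group.

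Genes that build or supply the complexes, and other mitochondrial genes, were counted beside the members. All counts here are of the averaged TAC comparison in the limma fit, and values are log2 differences. In that comparison 27.0% of all features were called (13.3% higher and 13.7% lower). None of these lists had a call in hearts filed as Cre, where 5.94% of features were called. Of 4 complex II subunits, which feed electrons from succinate to ubiquinone, 3 fell: Sdha (-1.14 ± 0.23, adjusted p = 0.0029), Sdhb (-0.60 ± 0.18, adjusted p = 0.022) and Sdhc (-0.56 ± 0.19, adjusted p = 0.041). Of 5 complex III assembly factors 1 fell, Uqcc1 (-1.05 ± 0.19, adjusted p = 0.0013), and of 5 genes for complex V assembly and inhibition 2 fell, Atpaf2 (-0.46 ± 0.12, adjusted p = 0.014) and Tmem70 (-0.56 ± 0.16, adjusted p = 0.018). Among 22 complex IV assembly factors 4 fell and 2 rose; Cmc2 (-0.59), Surf1 (-0.50) and Lrpprc (-0.75) fell and Cox18 (0.53) rose, the other calls being Coa4 (-0.55) and Cox16 (0.35). None of 4 adenine nucleotide and phosphate carriers was called. The calls among complex III and complex IV assembly factors were near or below the share of all features. Without KO TAC replicate 4 (38.1% of features called), 3 complex II subunits, 2 complex III factors and 2 complex V genes fell. Of the complex IV factors 4 then fell and 4 rose, and 1 carrier rose.

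Of 15 regulators of respiratory genes, 7 fell and 0 rose in the averaged comparison, where 13.7% of all features fell. Esrrg, an estrogen-related receptor, fell most clearly (-1.12 ± 0.18, limma adjusted p = 5.7e-04), followed by Ppara (-0.99 ± 0.18, adjusted p = 0.0012), a receptor for fatty acids, Esrrb (-0.86 ± 0.18, adjusted p = 0.0039) and Tfb1m (-0.63 ± 0.16, adjusted p = 0.0098). Esrra fell by 0.51 (adjusted p = 0.023). Ppargc1a, the coactivator PGC-1 alpha, was not called in the averaged comparison (-0.29 ± 0.15, adjusted p = 0.20). That value averages differences of opposite sign, 0.42 in Cre and -1.0 in KO. The median over the 15 regulators was -0.57, against -0.20 over the 44 subunits and 0.04 over all features. Without KO TAC replicate 4 it was -0.50, with 7 regulators lower and 1 higher (38.1% of features called). None of the regulators was called in hearts filed as Cre. In hearts filed as KO 8 of the 15 fell and 0 rose, where 12.6% of all features fell. Without KO TAC replicate 4 the KO comparison had 8 lower and 1 higher (31.5% of features called).

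Markers of cell types moved with TAC as well, in the averaged comparison where 27.0% of all features were called. All 12 cardiomyocyte markers were well above background on every array; 4 of the 12 fell in the averaged comparison, with a median of -0.35, and their summed log2 level lay between 11.41 and 11.43 on Cre sham, 11.17 and 11.54 on Cre TAC, 11.25 and 11.65 on KO sham and 10.52 and 11.41 on KO TAC arrays. Those that fell were Pln (-1.05), Ckm (-1.31), Tcap (-0.61) and Atp2a2 (-0.45), listed after their values were seen. Of 6 neutrophil markers 4 rose, with a median of 3.52 and a summed level of -0.97 to 0.81 on Cre sham, 3.18 to 3.45 on Cre TAC, -1.42 to 3.76 on KO sham and 3.32 to 5.65 on KO TAC arrays; 4 of the 6 were above background on all arrays. Of 9 macrophage markers 3 rose (median 0.66), of 7 fibroblast markers 4 rose (0.42), of 6 endothelial markers 4 fell (-0.63), of 5 smooth muscle and pericyte markers 2 rose and 1 fell (0.35), of 3 red blood cell markers 2 fell (-1.0) and of 4 adipocyte markers 1 fell (-1.18). Without KO TAC replicate 4 (38.1% of features called), 5 cardiomyocyte markers fell (median -0.24), 6 neutrophil markers rose (3.54) and 3 adipocyte markers fell (-1.80). Of macrophage markers 4 then rose (0.65), and of fibroblast markers 4 rose (0.45). Endothelial markers had 4 lower (-0.52), smooth muscle and pericyte markers 2 higher and 2 lower (0.43), and red blood cell markers 2 lower (-0.77). The part of these cell types in the subunit values was not tested. In such tissue RNA fewer cardiomyocytes and less subunit RNA in each cannot be told apart.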

How the data were processed

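RNA of 15 heart apices was hybridised to 1-colour Agilent arrays. Per the file headers, the spots were quantified by Agilent Feature Extraction, version 10.7.3.1. The scanner files hold each spot's deposited intensity: the authors' processed signal, which the software had background-corrected, and the median spot and local background signals behind it. They also hold deposited 0 or 1 values that mark spots as well above background or as outliers, per the file headers. The authors' deposited value table is on a log2 scale (column medians 7.22 to 7.23), and the submitters' processing notes name limma with no version. Its centring and direction were checked against the scanner files.

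From these, the processed signal was put on a log2 scale and the 75th percentile of its array subtracted, control and outlier spots were left out, and the brightest probe stood for a gene. Features well above background on 3 or more arrays were fitted with limma 3.58.1 (R 4.3.3), as 4 group means over all 15 arrays, with 6 contrasts. Calls have a Benjamini-Hochberg adjusted p under 0.05 over 25779 features. Isoform pairs were tested by exact permutation within filed genotype, in Python 3.11.15. The steps were tested on simulated data. Of 41174 probes, 24844 carry a symbol and 16330 do not.

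Replicates are separate animals as far as the labels say, and their number limits the precision. Groups follow the sample titles; the description field contradicts the operation in 7 of 15 samples. Values in every sample are given for isoform pairs, Cyc1, Cycs and the 4 members of smallest p in each direction of each TAC comparison; up to 4 genes of each related list are named by smallest p, with Ppargc1a and Esrra always. The lists were complex II subunits, assembly factors of complexes III, IV and V, carriers, regulators, mitochondrially encoded subunits and markers of cell types. The members and lists were chosen with earlier results of these data known. Alternatives covered scaling, background, filters, probes, blocks, array weights and samples left out. RefSeq upstream windows came from GRCm38.p6.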

Additional observations from a re-analysis of the deposited data

Results flagged for a closer look

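Of 131 sets of 4 arrays (1 gene in 1 group), 24 had 1 array far from the other 3 by Dixon's criterion, which chance meets in about 1 of 20 sets. The genes of a group are read on the same arrays, so the sets are not independent and that rate is only a guide. Cre TAC, with 3 arrays, gave no such set. Cre sham replicate 4, on slide 1, accounted for 15 of the 24. It lay below the other Cre sham arrays for Uqcrfs1 (6.09, others 6.70 to 6.82), Uqcrb (5.91, others 6.46 to 6.54), Cox6b1 (3.32, others 4.84 to 4.96), Cox6c (6.03, others 7.24 to 7.32) and Cox7b (6.79, others 7.14 to 7.20). The same held for Cox7c (-0.17, others 3.61 to 4.35), Cox8b (6.75, others 7.70 to 7.79), Atp5b (7.15, others 7.79 to 7.85), Atp5c1 (7.64, others 8.07 to 8.08) and Atp5g3 (6.94, others 7.73 to 7.84). It was also lower for Atp5h (7.76, others 7.90 to 7.92), Atp5j (7.43, others 7.56 to 7.58) and Atp5o (6.85, others 7.52 to 7.62), and higher for Cox4i2 (-4.41, others -5.11 to -5.00) and Atp5l (7.21, others 6.91 to 6.93).

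KO TAC replicate 4 lay below the other KO TAC arrays for Cox4i1 (7.41, others 8.18 to 8.29), Cox5b (7.31, others 8.14 to 8.24), Cox8a (5.42, others 6.32 to 6.42), Atp5e (6.55, others 7.53 to 7.69) and Atp5l (6.14, others 6.91 to 7.01). KO sham replicate 1, also on slide 1, was apart for Uqcrq (8.08, others 7.67 to 7.72) and Cox7c (0.88, others 4.29 to 4.70). Cre sham replicate 1 was apart for Uqcrq (7.83, others 7.71 to 7.73) and Cre sham replicate 3 for Uqcrh (8.23, others 8.26 to 8.27). The cause was not tested.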

How the results depend on the processing

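The values that follow are numbers of the 44 genes called, out of 34 alternative settings in all, some added after seeing the data, with the percent of all features called in brackets. In the Cre comparison (0 called) the count was 1 with normexp and quantile (7.0%), with slide as a block (7.82%), with array weights (15.9%) and with the slide block without KO TAC replicate 4 (22.1%), 2 with quantile without KO TAC replicate 4 (14.4%), 17 in the authors' deposited values (33.5%), 7 with those under the genotypes of the scanner files (22.8%) and 15 without their unmatched column (32.2%). In the KO comparison (3 called) it was 19 with normexp and quantile (25.8%), 13 with quantile (23.3%), 1 with median scaling (9.62%), 7 in the authors' values (22.8%), 1 with no filter on dim probes (15.1%), 5 with features above background on all arrays (30.7%), 5 with the slide block (28.8%), 8 with array weights (40.8%), 0 with the operation of the description field (0%), 6 with the slide block without KO TAC replicate 4 (41.5%), 17 in the authors' values with scanner genotypes (33.5%), 15 with quantile without KO TAC replicate 4 (31.8%), 18 with quantile and slide block (28.2%), 0 without slide 1 (12.3%), 6 with the dimmest probe (21.6%) and 0 when only the groups compared were fitted (12.2%). In the averaged comparison (3 called) it was 16 with normexp and quantile (28.9%), 12 with quantile (26.2%), 1 with median scaling (12.4%), 27 in the authors' values (42.4%), 6 with features above background on all arrays (34.5%), 5 with the slide block (32.6%), 8 with array weights (43.0%), 0 with the description field (0%), 7 with the slide block without KO TAC replicate 4 (49.2%), 27 in the authors' values with scanner genotypes (42.4%), 15 with quantile without KO TAC replicate 4 (38.7%), 15 with quantile and slide block (30.1%), 18 in the authors' values without the unmatched column (39.1%), 1 without slide 1 (16.2%) and 5 with the dimmest probe (25.1%). Between genotypes after TAC (0 called) it was 1 with quantile (3.31%) and with quantile and slide block (5.16%), and 2 with the authors' values (12.1%), with each of their variants (9.01% and 12.1%), array weights (15.5%), quantile without KO TAC replicate 4 (8.15%) and the slide block without it (16.4%). After sham and for the difference of responses no setting moved the count of 0.

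With each array left out, the counts ran from 0 to 1 (Cre), 1 to 9 (KO), 1 to 5 (averaged), 0 to 0 (sham genotypes), 0 to 1 (TAC genotypes) and 0 to 0 (difference of responses). The pair changes ran from -0.54 to -0.47 (Cox6a2 minus Cox6a1), -0.50 to -0.23 (Cox7a1 minus Cox7a2), -0.51 to -0.30 (Cox8b minus Cox8a), 0.02 to 0.58 (Cox4i2 minus Cox4i1), -0.40 to -0.08 (Atp5g1 minus Atp5g3) and -0.45 to -0.05 (Atp5g2 minus Atp5g3). Without slide 1, 4 pairs passed the test that had not: -0.44 (Cox7a1), -0.46 (Cox8b), -0.33 (Atp5g1) and -0.33 (Atp5g2). Taking the operation from the description field turned Cox7a2l to 0.06 averaged and 0.23 in KO, Atp5k to 0.08 in KO and Atp5j2 to 0.14 in KO. Cox6a1 kept its direction in all 33 alternatives and its call in 31. The fit of only the groups compared gives no value for averaged comparisons or the difference of responses.

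Replicate numbers did not pair the samples: over 21 pairs with a number in common the deviations correlated with a median r of -0.06 (-0.39 to 0.53), against 0.28 for 21 pairs on 1 slide. With the replicate block the averaged count was 1, the Cre count 0 and the KO count 3. The cause of these changes was not tested. Cox7b2, well above background on 12 of 15 arrays, was limited by signal over background.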
